A study of Homo sapiens with 3 samples.

Results

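The genes described here encode Wnt ligands (WNT), Frizzled receptors (FZD), the LGR4, LGR5 and LGR6 receptors, and the secreted Wnt inhibitors of the Dickkopf (DKK) and secreted Frizzled-related protein (SFRP) families. They were taken from the deposited gene table by symbol among protein-coding genes, which gave 39 genes of 29960 in the table, of which 17594 were protein coding. They comprised 18 Wnt ligands, 10 Frizzled receptors, 3 LGR receptors, 4 DKK genes and 4 SFRP genes. WNT2 was not among the genes listed. RNA was sequenced from single-cell clones of 5637, an established human bladder cancer cell line, either parental or selected for gemcitabine resistance. Gemcitabine is a deoxycytidine analog that blocks DNA synthesis, and the comparison asked which genes differ in expression with acquired resistance. Parental cells are labelled WT, resistant cells Gemcitabine Resistant, and both were untreated when collected. The study's methods describe stepwise rising gemcitabine with recovery intervals and then culture without the drug, whereas the labels speak of acute treatment. According to the study's methods the RNA came from single-cell clones. The comparison used the labelled libraries, which were 1 from parental and 2 from resistant cells, so differences between groups and between clones cannot be told apart beyond what the resistant clones show. They held 14475531 reads on genes in parental library 1, 15836788 in resistant library 1 and 17461941 in resistant library 2.

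Wnt proteins are lipid-modified secreted ligands that bind Frizzled receptors at the cell surface. With the co-receptors LRP5 and LRP6 they stabilize β-catenin, which then acts with TCF and LEF factors on target genes, while other Wnt proteins act through β-catenin-independent routes such as planar cell polarity. DKK proteins block LRP5 and LRP6, SFRP proteins can bind Wnt ligands directly, and LGR4, LGR5 and LGR6 bind R-spondins, which keep Frizzled receptors at the surface. In the bladder, Wnt signals are known for exchange between urothelium and stroma during regeneration.

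The samples carried the epithelial identity the labels give. All 9 markers on an epithelial and urothelial list had a mean above 1 FPKM, the deposited read number scaled to gene length and library size, and their summed level was 4382, 3707 and 4148 FPKM in parental library 1, resistant library 1 and resistant library 2. KRT19 was the most abundant of them. Within this list KRT5, a basal keratin, fell from 3829 reads in the parental library to 160 and 240 in the resistant libraries (log2 fold change -4.52, adjusted p = 0.00176, edgeR). The authors' group means of normalized counts for KRT5 were 11544 in the parental and 2047 in the resistant group, a smaller log2 ratio of -2.495. Each mean lay above the counts of the labelled libraries of its group. The low KRT5 of the labelled resistant libraries thus did not extend to every resistant library in these means. These means also hold libraries of each group that were not analysed here, as WNT3A shows, which had no read in the 3 libraries and means of 0.360 in the parental and 0.392 in the resistant group. KRT17 had 2759, 281 and 926 reads in the same order and did not pass the test (adjusted p = 0.259, edgeR). The median log2 fold change of the 9 was -0.57. Among markers of other cell types, VWF of endothelial cells had 6, 3 and 14 reads, PTPRC of blood cells 4, 3 and 2 reads, and CD3E of T cells 1, 3 and 0 reads. Of the fibroblast markers LUM had no read and PDGFRB 2, 4 and 2 reads, while the collagens COL1A1 (16.3, 14.9 and 9.05 FPKM) and COL1A2 (9.63, 9.97 and 13.9 FPKM) were expressed. The part of the keratin differences in the results on Wnt genes was not tested. In bulk RNA of this kind, fewer cells expressing a gene and less RNA per cell cannot be told apart.

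WNT7A supplied most of the Wnt ligand RNA in every library, and its share was larger in the resistant clones. Of the ligand FPKM summed over 18 genes, WNT7A made up 50.1% in the parental library, 83.9% in resistant library 1 and 73.2% in resistant library 2. WNT7B, its paralog, followed with 28.7%, 10.3% and 17.8%. The sum itself moved less, at 215.8, 255.4 and 263.6 FPKM. All ligands other than WNT7A together came to 107.8, 41.0 and 70.7 FPKM, so both resistant libraries lay below the parental one. These shares describe 3 libraries and were not tested.

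**Figure D1:**
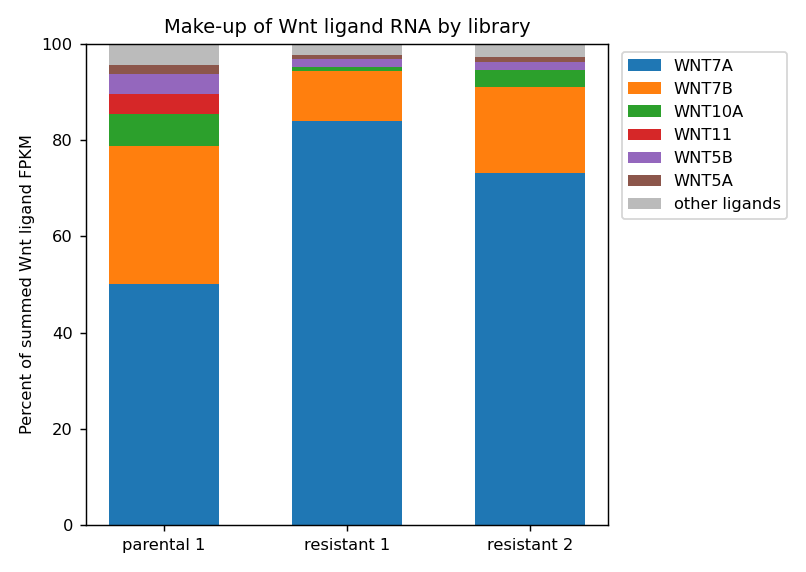
Percent of the summed Wnt ligand FPKM contributed by each ligand, with 1 stacked bar per library from 0 to 100 percent. WNT7A fills 50.1% of the parental bar and 83.9% and 73.2% of the resistant bars, and the WNT11 segment is visible in the parental bar alone.

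WNT7A (ENSG00000154764, hg19 chromosome 3, 13857755 to 13921618, minus strand) was at 108 FPKM in the parental library and at 214 and 193 FPKM in the resistant libraries, from 6318, 13721 and 13615 reads. Ranked by FPKM among all 29960 genes it stood at place 495, 195 and 218. The resistant values lay close together and both above the parental value. The log2 fold change was 0.86 ± 0.38 (SE), with a 95% interval from -0.004 to 1.72, and did not pass the test across all genes (adjusted p = 0.529, edgeR). The authors' group means of normalized counts, which pool these and further libraries of each group and carry no spread, were 6092 in the parental and 10956 in the resistant group, a log2 ratio of 0.85. WNT7B (ENSG00000188064, hg19 chromosome 22, 46316242 to 46373009) had 61.9 FPKM in the parental library against 26.4 and 46.9 FPKM. Its log2 fold change was -0.80 ± 0.41 (SE; adjusted p = 0.613, edgeR), and the group means gave a smaller log2 ratio of -0.22. Both resistant values of WNT7B were below the parental value, but they differed from each other by 0.88 on the log2 CPM scale.

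A gene was called when its Benjamini-Hochberg adjusted p was under 0.05 in edgeR's quasi-likelihood test of resistant against parental, with at least 30 reads over the 3 libraries required for testing. With a single parental library, the spread came from the 2 resistant clones and from all genes together, and the parental library was assumed to vary as they do. Of 14846 genes tested, 92 were called, which is 0.620%, with 71 lower (0.478%) and 21 higher (0.141%) in the resistant clones. Of the 39 genes, 26 had enough reads for the test and 13 did not. WNT11 and LGR6 were called, both lower, and no member was called higher. At an unadjusted p under 0.05 there were 5 members, namely WNT11, LGR6, WNT9A, DKK1 and WNT5B, against 9.48% of all genes tested. DESeq2 called 248 genes (1.67%), among them WNT11, LGR6 and WNT9A. The median log2 fold change of the 26 members in edgeR was -0.27, with 17 below 0, beside a median of 0.03 over all genes tested. When genes with few reads were not filtered out, no gene of 26434 was called by edgeR (1459 at an unadjusted p under 0.05), and the adjusted p of WNT11 and LGR6 became 0.276 and 0.509.

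WNT11 (ENSG00000085741, hg19 chromosome 11, 75897369 to 75921780, minus strand), a ligand best known for β-catenin-independent signalling and cell movement, fell in both resistant clones to almost nothing. It had 251 reads in the parental library and 2 and 4 reads in the resistant libraries, or 8.98, 0.0654 and 0.119 FPKM. In the parental library it was the fourth most abundant ligand. The groups were far apart, with the resistant libraries at or near the floor of 3 reads, which corresponds to 0.184 and 0.173 CPM (counts scaled to library size) there. The log2 fold change was -6.58 ± 0.61 (SE; 95% interval -7.98 to -5.19; adjusted p = 0.00271, edgeR). The pooled ratio of resistant to parental was 0.0100, with an exact 95% counting interval from 0.00364 to 0.0221. The authors' group means were 672.8 in the parental and 2.88 in the resistant group, a log2 ratio of -7.44. An antisense gene inside WNT11, RP11-619A14.2, had 3, 0 and 0 reads, so it added little to any count at this place.

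LGR6 (ENSG00000133067, hg19 chromosome 1, 202163029 to 202288909), an R-spondin receptor known as a marker of epithelial stem cells in skin, fell from 93 reads in the parental library to 4 and 7 reads. In FPKM this was 1.801 against 0.0708 and 0.112. The log2 fold change was -4.31 ± 0.66 (SE; adjusted p = 0.0314, edgeR), and the pooled counts gave a ratio of 0.0495 (exact 95% counting interval 0.0239 to 0.0927). The group means differed less, at 50.2 and 8.62 normalized counts, a log2 ratio of -2.41. Its relatives did not share this pattern. LGR4, which is broadly expressed in epithelia, had 208, 201 and 192 reads and a log2 fold change of -0.34 (adjusted p = 0.904, edgeR). For LGR4 the group means were 370.4 and 167.1, a log2 ratio of -1.14, so the labelled libraries and the larger pools gave different sizes of change. LGR5, a stem cell marker and β-catenin target in the intestine, had 0, 1 and 9 reads and was not tested. LGR4 therefore accounted for 60.5% of the LGR FPKM in the parental library and for 96.7% and 90.4% in the resistant libraries.

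WNT9A (ENSG00000143816, hg19 chromosome 1, 228106357 to 228135631, minus strand) had the next largest log2 fold change among the tested members and lay just outside the threshold. It had 151 reads in the parental library against 13 and 29, or 2.63, 0.207 and 0.418 FPKM. The log2 fold change was -3.10 ± 0.56 (SE; adjusted p = 0.0545, edgeR). It was called with DESeq2's Wald test (adjusted p = 0.0157), with RLE size factors (adjusted p = 0.0350, edgeR) and with a minimum of 150 reads (adjusted p = 0.0420, edgeR). It was not called with edgeR's legacy method (adjusted p = 0.0613) or without the filter on low counts (adjusted p = 0.716, edgeR). The group means were 156.9 and 29.96, a log2 ratio of -2.35. WNT11, LGR6 and WNT9A were the tested members at least 2-fold lower than the parental library in both resistant libraries on the log2 CPM scale, 3 of the 26 tested, beside 2.86% of all genes tested. No tested member was at least 2-fold higher in both, beside 4.01% of all genes tested.

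**Figure D2:**
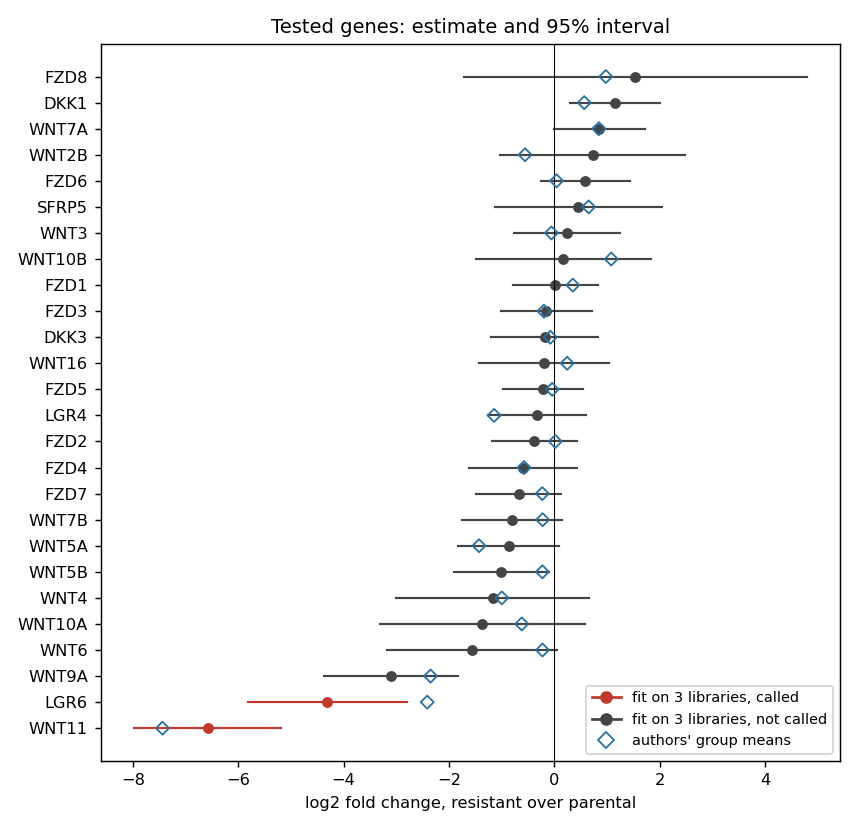
Log2 fold change of resistant over parental for the 26 tested genes, as a point with its 95% interval from the edgeR fit on 3 libraries (red where called), and as an open diamond for the log2 ratio computed from the authors' means of each group. WNT11 at -6.58 and LGR6 at -4.31 are called, and of the other intervals all but those of WNT9A, DKK1 and WNT5B cross 0.

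Promoter sequence is shown for LGR6 and WNT9A, which had the largest differences among members with an entry in the RefSeq promoter table, and for WNT7A, the most abundant member. The table, on GRCh38.p14, held 26 of the 39 genes. Members without an entry were DKK2, DKK3, DKK4, FZD2, FZD3, FZD6, FZD7, FZD10, LGR5, SFRP1, WNT7B, WNT10B and WNT11. Each sequence is the 250 bases before the annotated start, 5′ to 3′ on the strand of the gene, shortened to 200 bases for WNT7A, where GENCODE 29 places an exon. Capitals mark CG dinucleotides. The LGR6 stretch is chr1:202193549-202193798 on the plus strand, that of WNT9A chr1:227947933-227948182 on the minus strand, and that of WNT7A chr3:13880122-13880321 on the minus strand.
LGR6: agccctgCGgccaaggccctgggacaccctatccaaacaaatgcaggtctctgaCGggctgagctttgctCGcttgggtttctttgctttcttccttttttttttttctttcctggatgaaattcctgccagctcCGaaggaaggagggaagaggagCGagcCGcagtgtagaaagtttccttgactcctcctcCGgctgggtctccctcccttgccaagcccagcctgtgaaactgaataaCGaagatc
WNT9A: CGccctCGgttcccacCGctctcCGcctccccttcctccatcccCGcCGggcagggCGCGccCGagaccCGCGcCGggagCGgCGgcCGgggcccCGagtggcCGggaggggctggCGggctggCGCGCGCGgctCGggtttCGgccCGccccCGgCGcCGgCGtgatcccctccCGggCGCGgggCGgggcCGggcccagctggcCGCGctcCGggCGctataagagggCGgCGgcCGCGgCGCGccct
WNT7A: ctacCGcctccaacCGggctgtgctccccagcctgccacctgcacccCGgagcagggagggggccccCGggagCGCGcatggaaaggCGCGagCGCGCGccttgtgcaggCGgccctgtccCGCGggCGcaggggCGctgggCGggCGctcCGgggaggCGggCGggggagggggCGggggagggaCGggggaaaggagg
The 3 genes differed widely in CG content: over the full 250 bases LGR6 held 8 CG dinucleotides, WNT7A 29 and WNT9A 44, beside a median of 11 over 35116 promoters in the table. Fewer CG dinucleotides were present in 43.7% of promoters than in LGR6, in 85.9% than in WNT7A and in 99.2% than in WNT9A. The core letters recognized by TCF and LEF factors, CTTTGAT or ATCAAAG on the other strand, were found in 0 of the 26 member promoters and in 2.26% of all promoters of this length. That says only that these letters are not in this window, and which start site these cells use was not measured.

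Among the other ligands, WNT5A and WNT5B were lower in both resistant libraries without passing the test, and WNT3 and WNT16 lay near the parental level. WNT5A, a ligand of β-catenin-independent signalling, had 371 reads in the parental library and 182 and 308 in the resistant libraries (log2 fold change -0.86 ± 0.42 SE; adjusted p = 0.584, edgeR). WNT5A-AS1, an antisense gene within WNT5A, had 54, 38 and 73 reads, and without a statement on strand these cannot be told apart from WNT5A reads. The group means gave a larger log2 ratio for WNT5A, -1.43. Its relative WNT5B had 285 reads in the parental library and 169 and 170 in the resistant libraries, a log2 fold change of -1.005 ± 0.39 (SE; adjusted p = 0.466, edgeR), and the group means gave -0.23. WNT5B shares its place with FBXL14 on the opposite strand, which had 410, 571 and 550 reads, so its count is uncertain too. The resistant values of WNT5B were nearly equal, those of WNT5A lay further apart, and all were below the parental values. WNT3, a β-catenin-activating ligand, had 2.37, 2.95 and 2.88 FPKM, and WNT16 had 46, 42 and 54 reads. WNT2B had 11, 16 and 28 reads and WNT10B 13, 17 and 18 reads. For WNT3, WNT16 and WNT2B the sign of the difference was the opposite in the group means. WNT1, WNT3A, WNT8A, WNT8B and WNT9B were under 30 reads in sum, and WNT3A and WNT8A had none in any library.

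**Figure D3:**
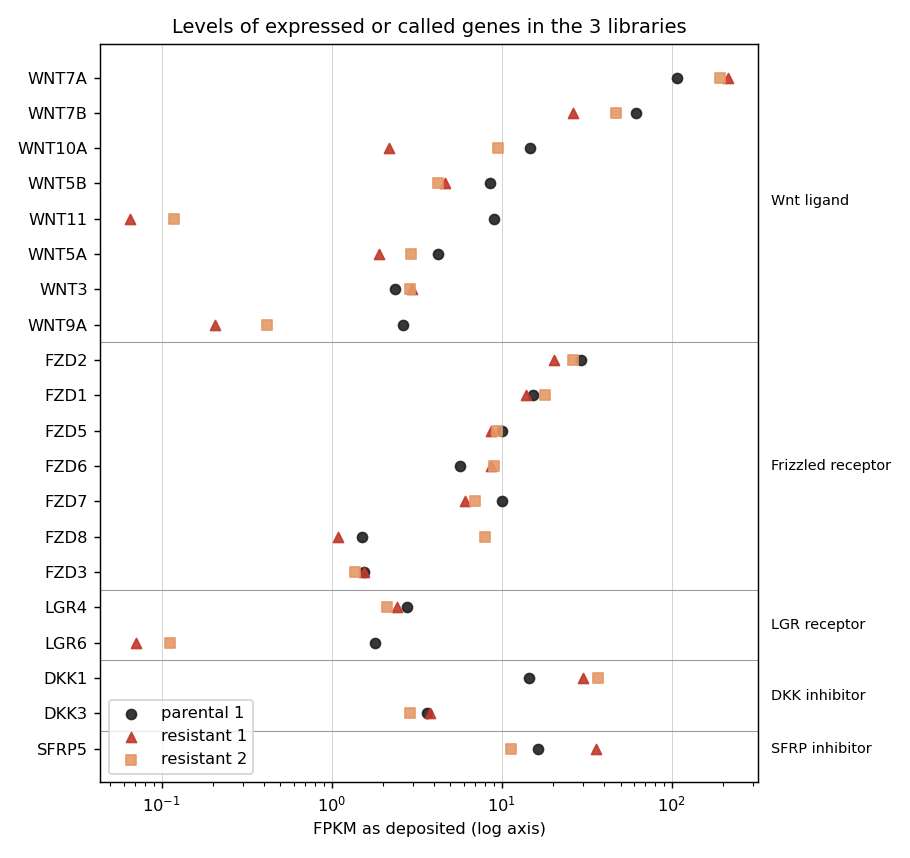
Deposited FPKM on a log axis for the 19 genes with a mean of at least 1 FPKM and for LGR6, with 1 point per library and genes grouped by role. For WNT11, WNT9A and LGR6 both resistant points sit far below the parental point, and for FZD8, SFRP5 and WNT10A the 2 resistant points lie apart.

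Some members differed widely between the resistant clones, and for FZD8 and SFRP5 the clones differed more from each other than either did from the parental line. FZD8, a Frizzled receptor, had 70 reads in the parental library, 55 in resistant library 1 and 443 in resistant library 2, or 1.52, 1.09 and 7.96 FPKM. Its fitted log2 fold change of 1.54 thus rested on resistant library 2, with an interval from -1.71 to 4.79. SFRP5, a secreted inhibitor and nearly the sole SFRP expressed, had 436, 1044 and 365 reads, so that resistant library 1 was above and resistant library 2 below the parental library. WNT10A, a ligand of skin and tooth development, had 543, 88 and 425 reads. WNT6, which lies 6129 bases away from WNT10A on chromosome 2 in the same orientation, had 42, 8 and 26 reads, so both were lowest in resistant library 1 and highest in the parental library. WNT4 had 17, 5 and 13 reads. These were the 5 of 26 tested members with at least a 2-fold difference between the resistant libraries on the log2 CPM scale, beside 9.63% of all genes tested, a fold between single libraries with no test. None of the 5 was called in the comparison of resistant with parental. In contrast, the log2 difference between the resistant libraries was -0.10 for WNT7A and 0.02 for WNT3.

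**Figure D4:**
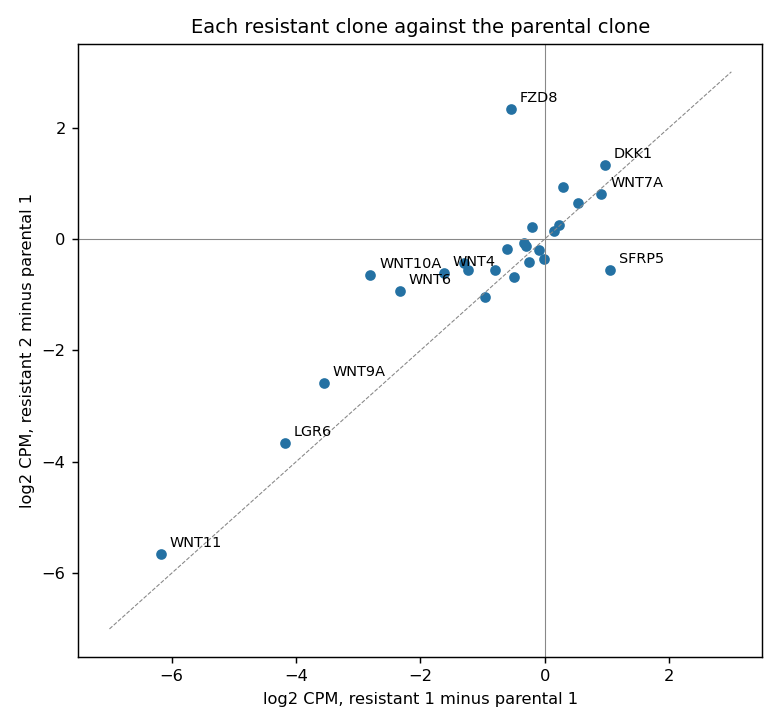
Difference in log2 CPM from the parental library for each of the 26 tested genes, with resistant library 1 on the x axis and resistant library 2 on the y axis; the dashed line marks equal values. WNT11, LGR6 and WNT9A lie at the lower left, with WNT9A at -3.56 and -2.59, and FZD8 (-0.54 and 2.33) and SFRP5 (1.05 and -0.55) lie off it with opposite signs.

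The Frizzled receptors made a broad set with little change in sum. Their FPKM added up to 74.6 in the parental library and to 61.3 and 80.0 in the resistant libraries. FZD2 was the most abundant in each, at 29.2, 20.2 and 26.4 FPKM, and FZD1 followed at 15.2, 13.9 and 17.9 FPKM. Lower levels were found for FZD5 (10.0, 8.63 and 9.37 FPKM), FZD7 (10.0, 6.08 and 6.93 FPKM) and FZD6 (5.65, 8.67 and 9.04 FPKM). In the parental library FZD5 and FZD7 were equal to 3 digits, and in the resistant libraries FZD5 and FZD6 were close and changed places between the clones. FZD3 stayed between 1.38 and 1.56 FPKM. FZD4, the receptor for norrin as well as Wnt ligands, had 131, 107 and 100 reads, and it overlaps PRSS23 on the opposite strand, so its count is uncertain. None of the 8 tested receptors was called by edgeR or DESeq2, beside 0.620% and 1.67% of all genes tested, and none had an unadjusted p under 0.05 in edgeR, beside 9.48%. With 8 genes, no call sets the receptors apart from other genes. FZD7 had the smallest p among them, with a log2 fold change of -0.68 ± 0.36 (SE; adjusted p = 0.620, edgeR). The group means gave a smaller log2 ratio for FZD7, -0.23. For FZD6 they gave 0.04, beside a fitted log2 fold change of 0.59. FZD9 had 9, 6 and 11 reads and FZD10 0, 0 and 1.

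Among the secreted inhibitors, DKK1 and SFRP5 were the most abundant, and their order differed between libraries. SFRP5 had 16.4, 35.9 and 11.4 FPKM, above DKK1 in parental library 1 and resistant library 1 and below it in resistant library 2. DKK1 (ENSG00000107984, hg19 chromosome 10, 54074056 to 54077802), an antagonist of LRP5 and LRP6, had 374 reads in the parental library and 848 and 1156 in the resistant libraries. In FPKM these were 14.4, 29.9 and 37.0. Both resistant values were above the parental value. The log2 fold change was 1.16 ± 0.37 (SE; 95% interval 0.31 to 2.01), and it was not called (adjusted p = 0.352, edgeR). The group means of 640.4 and 950.9 gave a log2 ratio of 0.57. DKK3, a divergent family member, had 3.62, 3.79 and 2.87 FPKM and a log2 fold change of -0.18. DKK2 had 0, 3 and 12 reads and DKK4 0, 4 and 10 reads. Pooled over the resistant libraries they were at least 2.09-fold and 1.95-fold higher against a floor of 3 reads for the parental group, with the resistant reads taken as counted, and the exact 95% counting interval of the ratio began at 1.50 and 1.39. Both bounds rest on resistant library 2, since resistant library 1 was at 0.184 CPM for DKK2 and 0.245 CPM for DKK4 beside a parental floor of 0.213 CPM. SFRP1, known as silenced in many tumors, went the other way. It had 17 reads in the parental library and none in either resistant library. The authors' group means were 12.14 in the parental and 1.175 in the resistant group, a log2 ratio of -2.595. Resistant libraries not used here thus held some reads. The parental value was 1.205 CPM, beside floors of 0.184 and 0.173 CPM for single resistant libraries. Against a floor of 3 reads over the 2 labelled resistant libraries, 0.0890 CPM, SFRP1 was at least 13.5-fold lower in them, with the parental reads taken as counted. The group means gave a smaller difference. The exact 95% counting interval of the ratio of resistant to parental reached up to 0.101, which allows a smaller difference than this bound. These limits say nothing of the spread between clones, and the 3 genes were below the filter and not tested. SFRP2 had 1 read in all and SFRP4 none.

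The other genes of the pathway were taken from lists of 78 genes, of which 76 were in the table and 61 had enough reads. None of the 61 was called by edgeR or by DESeq2, beside 0.620% and 1.67% of all genes tested. At an unadjusted p under 0.05 in edgeR there were 9, 3 higher and 6 lower, beside 9.48% of all genes tested. Their median log2 fold change was -0.01, with 29 above and 32 below 0. WLS, which carries Wnt proteins to the surface, had 39.4, 47.3 and 52.2 FPKM, and PORCN, the acyltransferase that lipidates them, 7.82, 7.47 and 13.3 FPKM. LRP5 was far more abundant than LRP6, at 139, 106 and 154 FPKM against 4.83, 3.61 and 2.60 FPKM. RECK and ADGRA2 (listed as GPR124), which act together as co-receptor for WNT7A and WNT7B, were low, at 1.47, 0.775 and 0.843 FPKM and at 0.154, 0.373 and 0.667 FPKM. Of the 9 co-receptors and other Wnt receptors, none was called and 1, ADGRA2, had an unadjusted p under 0.05.

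Several targets that report β-catenin activity in many tissues were close to absent. AXIN2, the feedback scaffold, had 2, 1 and 1 reads, NKD1 0, 0 and 1, and NOTUM, a Wnt deacylase, 0, 0 and 3. RNF43 had 6, 0 and 4 reads, APCDD1 0, 0 and 1 and ASCL2 1, 0 and 0. NKD2 had 4, 5 and 11. None of these reached 30 reads in sum, whereas β-catenin itself (CTNNB1) was at 104, 113 and 118 FPKM. Of the 15 listed targets, 8 were tested, with 4 above and 4 below 0 and a median log2 fold change of 0.08. SP5, a transcription factor induced by β-catenin, had 1.29, 2.83 and 2.82 FPKM (adjusted p = 0.590, edgeR). CCND1 (286, 326 and 428 FPKM), MYC (134, 154 and 263 FPKM) and CD44 (72.7, 66.1 and 66.2 FPKM), which respond to other pathways as well, were abundant. TNFRSF19, with 3, 23 and 67 reads, was the target with an unadjusted p under 0.05 (adjusted p = 0.304, edgeR). ZNRF3, a ligase that removes Frizzled receptors, had 5.30, 4.44 and 4.405 FPKM, while RSPO1 and RSPO4 had no read and RSPO3 1, 3 and 1.

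In the edgeR fit the nuclear effectors had the lowest median of the pathway lists, -0.38 over 13 genes. None was called and 2 had an unadjusted p under 0.05, beside 0.620% and 9.48% of all genes tested. With the authors' group means their median log2 ratio was -0.10, and the lowest median was -0.39, for other extracellular inhibitors. TCF7L1, a TCF factor that mostly represses, had 644, 214 and 323 reads (log2 fold change -1.53; adjusted p = 0.183, edgeR). TLE3, a corepressor, was the other one, with 2909, 2037 and 1811 reads. TCF7 had 15.1, 12.4 and 7.67 FPKM, TCF7L2 6.72, 10.8 and 9.51 FPKM and LEF1 1.55, 0.763 and 1.58 FPKM. None of the 9 tested planar cell polarity genes was called and 3 had an unadjusted p under 0.05, beside the same shares of all genes. These were VANGL2 (1053, 413 and 522 reads; adjusted p = 0.159, edgeR), CELSR1 and PRICKLE1, each with a log2 fold change below 0. In the destruction complex list, 16 genes were tested and none was called. DVL1, a Dishevelled protein that relays the signal from Frizzled, had 61.0, 103 and 130 FPKM (adjusted p = 0.518, edgeR) and was the gene of that list with an unadjusted p under 0.05. Among 6 tested other extracellular inhibitors none was called. FRZB, also known as SFRP3, belongs to the SFRP family but was not taken by symbol and is not among the 4 SFRP genes. It had 26, 8 and 3 reads (adjusted p = 0.352, edgeR). SOSTDC1, below the filter, had 26 reads in the parental library and 0 in both resistant libraries. SHISA3 had 3, 5 and 136 reads, so its fitted log2 fold change of 4.22 rested on resistant library 2.

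**Figure D5:**
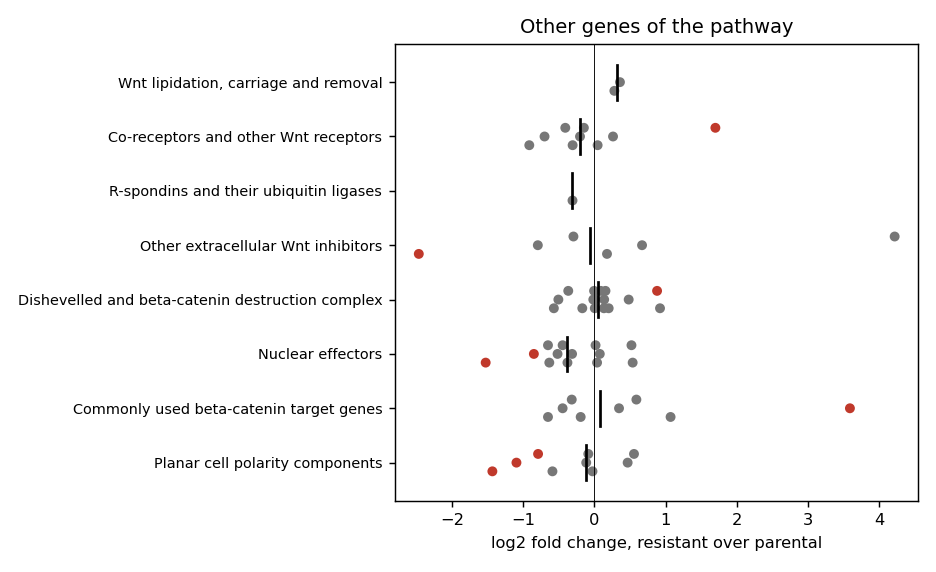
Log2 fold change of resistant over parental for the tested pathway genes outside the 39 genes taken by symbol, by list. Each gene is 1 point, red at an unadjusted p under 0.05, and a bar marks each list's median. None is called after adjustment, and the edgeR medians run from -0.38 for nuclear effectors to 0.32 for lipidation, carriage and removal. With the authors' group means the medians run from -0.39 for other extracellular inhibitors to 0.24 for the β-catenin targets.

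Position along the chromosome was set beside the members' values through genes tested with their lower coordinate within 1 Mb of the member's. Around WNT11, 15 neighbours had a median log2 fold change of -0.72 and none was called. Around WNT7B, 23 neighbours had a median of -0.60, close to the -0.80 of WNT7B itself. Around DKK3, 6 neighbours had a median of -0.75 with 1 called lower, beside -0.18 for DKK3 itself. The 27 neighbours of LGR6 had a median of -0.04 and the 15 neighbours of WNT9A a median of 0.00. The 12 neighbours of WNT7A had a median of -0.25 beside its own 0.86. The 36 neighbours of WNT10A had a median of 0.09 in resistant library 1, where WNT6 and WNT10A were both low. Among other Wnt genes that lie close together, WNT3 and WNT9B were unequal in level, as were WNT9A and WNT3A. WNT3 was expressed and WNT9B, 46 bases away on the opposite strand, had 1 read in all. WNT9A and WNT3A lie 59120 bases apart, and WNT3A had no read. WNT10B and WNT1, 6851 bases apart, were both low, with at most 18 reads in a library.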

How the data were processed

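Raw read counts per gene and library were used as the authors deposited them, without normalization. FPKM values per library are the authors' deposited values and were used to compare levels between genes. The group signal is the authors' deposited mean of normalized counts per group, printed as such, and it covers libraries beyond the 3 used here. Per the submitters' processing notes CASAVA 1.8 and hg19 were used. The aligner, counting tool and annotation are not given in the sources used here, and it is not stated whether counting used strand. The authors' deposited fold changes, p-values and adjusted p-values were not used, nor were 6 per-library columns without a sample label.

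Counts of genes with at least 30 reads over the 3 libraries were scaled by TMM (factors 0.974, 1.03 and 0.995) and tested with edgeR 4.0.16 (R 4.3.3) by glmQLFit and glmQLFTest, robust, Benjamini-Hochberg adjusted over all genes tested. SE was derived from the F statistic. Log2 CPM used a prior count of 2, and ratios of group means a pseudocount of 1. Alternatives were DESeq2 1.42.0, RLE factors, other filters, the legacy method, group means and FPKM (pseudocounts 0.1 and 1). Precision follows from totals of 14475531, 15836788 and 17461941 reads, and floors and intervals cover counting error only. The procedure was tested on simulated data with the same spread in all 3 libraries. That setting cannot check the assumption that the parental library varies as the resistant ones do. The members and the pathway lists were chosen with earlier results of these data known. Named were members with a mean of at least 1 FPKM or called, other members as examples, called pathway genes, and WLS, PORCN, LRP5, LRP6, CTNNB1, AXIN2, NKD1, LEF1, TCF7 and TCF7L2. Other pathway genes named were chosen after their values were seen. One marker result is not reported here. Markers not listed in the table were DCN and PECAM1, and RSPO2 and CER1 were pathway genes not listed. Figures used Python 3.11.15 and matplotlib 3.10.9.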

Additional observations from a re-analysis of the deposited data

How the results depend on the processing

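All 26 tested members kept the sign of their log2 fold change with RLE factors, the legacy method, no filter, DESeq2 and FPKM, as did the 20 that a minimum of 150 reads left. WNT11 was called with RLE factors, DESeq2, a minimum of 150 reads and the legacy method, and LGR6 with the same settings except the minimum of 150 reads, which removed it. Over all 14846 genes tested, 92 calls became 128 with RLE factors and 248 with DESeq2. Without the filter on low counts there were 0 calls (1459 at an unadjusted p under 0.05). The cause of these changes was not tested. The 21 higher calls became 36 with RLE factors, 122 with DESeq2, 39 with a minimum of 150 reads and 0 without the filter. The 71 lower calls became 92 with RLE factors, 126 with DESeq2 and 0 without the filter. Members called numbered 3 with RLE factors and 3 with DESeq2, beside 128 and 248 of all 14846 genes tested, and 0 without the filter. Epithelial markers called numbered 2 with DESeq2 and 0 without the filter, against 1. The median of tested members, -0.27, was between -0.41 and -0.39 with either resistant clone left out, -0.21 with the group means, and -0.21 and -0.17 with FPKM at a pseudocount of 0.1 and 1. Without resistant replicate 1 SFRP5 turned from 0.46 to -0.55, and without resistant replicate 2 FZD8 turned from 1.54 to -0.54 and FZD1 from 0.02 to -0.20. The group means turned FZD2, WNT16, WNT2B and WNT3. With a clone left out each group holds 1 library, so no count of calls was computed. No paired analysis was made, because the labels pair no parental clone with a resistant clone. Depth limits members under 30 reads.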
